A study of Mus musculus with 36 samples.

Results

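Livers of AAKO mice given CL316243 were compared with livers of AAKO mice that were fed and not treated, 6 arrays against 6, which are 12 of the 36 arrays of the study. AAKO is the label for male C57Bl/6J mice whose white adipose tissue lacks ATGL (adipose triglyceride lipase, the product of Pnpla2), and both groups carry that deletion. The promoter that drives the deletion and the age of the mice are not given in the sources used here. Arrays were chosen by sample title. The treated mice (experiment 1 in the labels) had free access to food and received 3 mg/kg CL316243 by gavage at Zeitgeber time (ZT) 10, 2 h before lights off, in carboxymethyl cellulose. The fed mice (experiment 2) had the same diet and no stated gavage, and mice of both groups were killed at ZT 16. Treatment, gavage, vehicle and experiment therefore cannot be told apart in this comparison. Mice labelled CTRL (the control genotype) in the same 2 conditions, with 6 arrays each and the same split of experiments, and 6 AAKO mice fasted for 24 h in experiment 1 are used beside it. The labels number the arrays of a group as replicates, and p-values measure the spread between these arrays.

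CL316243 is an agonist of the beta 3 adrenergic receptor. In rodents this receptor is found mainly on adipocytes, where it raises cAMP, and protein kinase A then starts the breakdown of stored triglyceride. ATGL takes off the first fatty acid. The freed fatty acids reach the liver, where they are burned, made into ketone bodies or stored, and where they and their derivatives can activate PPARα, the nuclear receptor that turns on fatty acid oxidation genes. The agonist also makes the pancreas release insulin, by a route that depends on adipose lipolysis. The comparison addresses what the agonist does to liver RNA when adipocyte lipolysis lacks its first lipase.

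Values are log2 spot signals from which the log2 of each array's own 75th percentile was taken away, so that 0 is the brightness of that percentile and 1 unit is a doubling. Between 36499 and 39070 spots per array of the 12 were well above background, and the correlation of an array with others of its group had a median between 0.984 and 0.992. All 10 hepatocyte markers (among them Alb, Apoa1 and Ttr) were well above background on all 12 arrays, and 0 of 10 were called. A gene is called at an adjusted p under 0.05 in a limma fit of all 36 arrays with 6 group means and the wash batch, and errors beside differences are standard errors of that fit. In whole liver, fewer cells of a type and less RNA per cell cannot be told apart.

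After CL316243, 7607 of 24243 genes were called in AAKO liver, 31.4% of those tested. Of these, 3810 were higher (15.7%) and 3797 lower (15.7%), and the median of all genes was -0.01. The share of higher calls was 50.1% here and with median scaling, 50.6% with quantile normalization and 52.2% after normexp background correction. In the authors' value table it was 40.5%, so the split between directions differed there. The median log2 value of that table was 6.93 on every fed and 6.88 on every treated AAKO array. Changes of at least 2-fold were called for 1195 genes (4.93%), 522 higher and 673 lower. The 6 treated arrays lay wholly above or below the 6 fed arrays for 3666 genes (15.1%). Within wash batches 1 and 2 alone, each with arrays of both groups, 4720 and 2291 genes were called. In CTRL, 5644 genes were called (23.3%), 2532 higher (10.4%) and 3112 lower (12.8%). The response of the 2 genotypes differed, by the interaction term, for 2634 genes (10.9%), with the higher response in AAKO for 6.34% of all genes tested and the lower for 4.53%, and by at least 2-fold for 2.67%. Of those called, 58.4% had the higher response in AAKO here and 44.1% in the authors' value table. An effect of the experiment or gavage that is the same in both genotypes cancels in that term. Of the AAKO calls 36.4% were called in CTRL in the same direction, and so were 49.1% of the CTRL calls in AAKO. In opposite directions 261 genes were called, and 1926 AAKO calls (25.3%) were also called in the interaction.

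**Figure D1:**
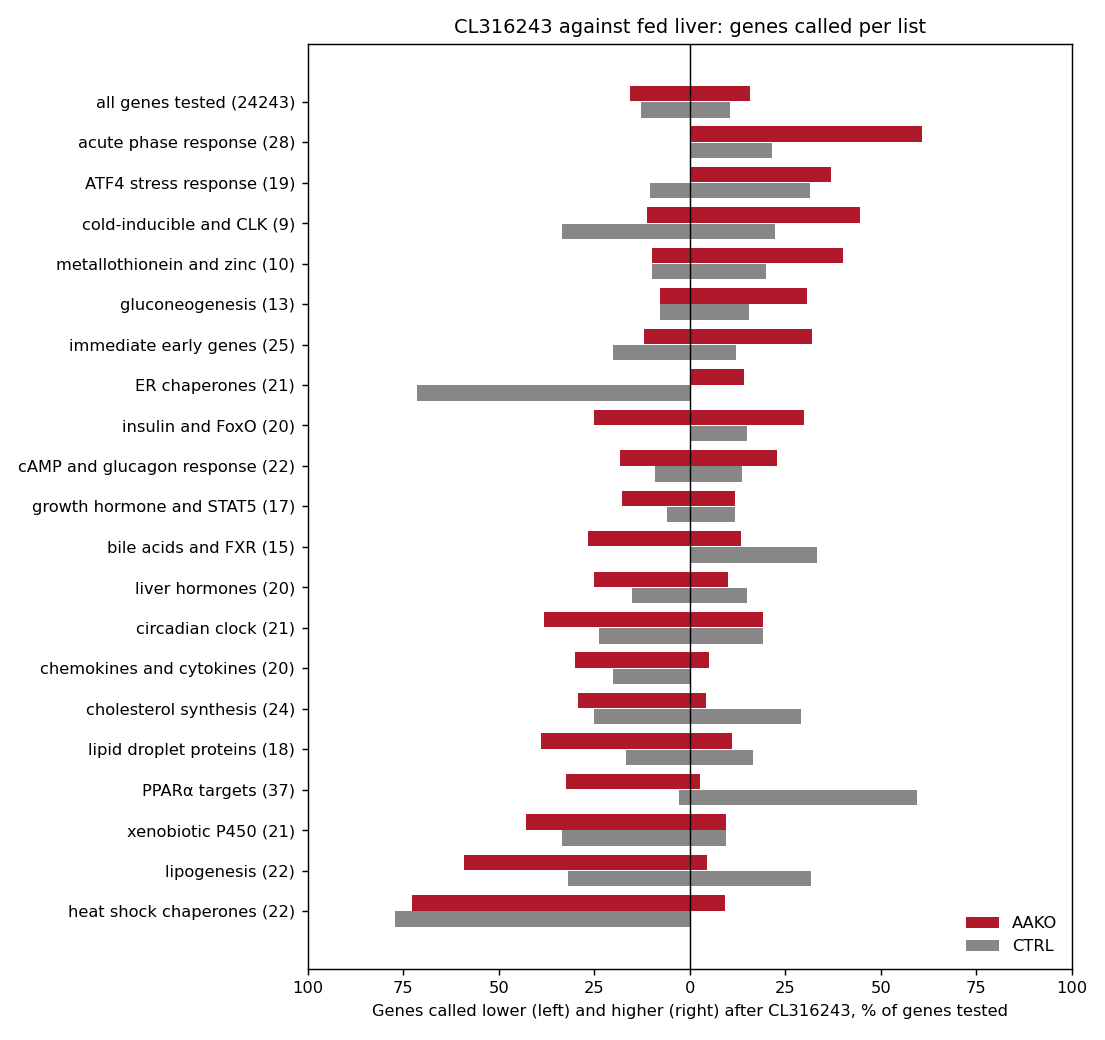
Percentage of the tested genes of each list (number tested in brackets) that was called lower (bars to the left) or higher (bars to the right) after CL316243, in AAKO (red) and CTRL (grey), with all genes tested at the top. Acute phase genes reached 17 of 28 higher in AAKO, and PPARα targets 1 of 37 in AAKO against 22 in CTRL.

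Targets of PPARα, which encode the enzymes and carriers of fatty acid oxidation and related proteins, did not rise as a group in AAKO liver. Of 37 tested, 1 was called higher and 12 were called lower, with a median of -0.24. In CTRL 22 were called higher and 1 lower, with a median of 0.39. The interaction was called for 25 of them, in each case with the lower response in AAKO. The count of lower calls in AAKO was 9 without fed replicate 4, and 9 and 3 within wash batches 1 and 2 alone.

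The gene called higher was Cpt1a, the carnitine palmitoyltransferase that admits long-chain fatty acids to mitochondria (probe at chr19:3385374-3385433; positions of probes follow the files' mm9 coordinates, without exon or UTR annotation). Cpt1a ran from 4.69 to 5.34 (median 4.85) on the fed arrays and from 5.59 to 6.16 (median 5.74) on the treated arrays. No treated array overlapped a fed one, and the difference was 0.86 ± 0.11 (limma adjusted p = 8.53e-07). In CTRL it rose by 0.74, and the interaction of 0.11 did not pass (adjusted p = 0.757).

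Plin5, a coat protein that ties lipid droplets to mitochondria, had the most negative difference of the list. Plin5 ran from 4.70 to 5.23 (median 5.03) on the fed arrays and from 3.19 to 4.06 (median 3.39) on the treated arrays (chr17:56251025-56251084). Every treated array lay below every fed array, with a difference of -1.43 ± 0.21 (adjusted p = 3.06e-06), against -0.07 in CTRL (adjusted p = 0.858), and the interaction was called (-1.36). Acsl1, which activates long-chain fatty acids to acyl-CoA, fell by 1.17 (SE 0.16, adjusted p = 1.21e-06), and its 2 other tested probes gave -1.55 and -3.00. Aldh3a2, a fatty aldehyde dehydrogenase, changed by -1.25 ± 0.18 and Acot4, a peroxisomal acyl-CoA thioesterase, by -0.90 ± 0.25. Acot4 moved the other way in CTRL (0.99, adjusted p = 0.00325). Ppara itself changed by -0.52 in AAKO and by 0.52 in CTRL, both called, and Creb3l3, a liver transcription factor that acts with PPARα, by -0.30 and 0.51, both called. Crat, which moves acetyl groups between CoA and carnitine, is outside the list and was called in opposite directions: -1.19 ± 0.19 in AAKO and 1.24 in CTRL (interaction -2.43, adjusted p = 6.06e-07).

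Genes of the list with the highest responses in CTRL were not called in AAKO. Plin2, the main droplet coat protein of hepatocytes, ran from 4.92 to 5.52 (median 5.19) in fed and from 4.07 to 5.38 (median 5.16) in treated AAKO mice (chr4:86302847-86302906). These ranges overlapped and the difference was -0.18 ± 0.25 (adjusted p = 0.639), against 2.32 in CTRL. Fgf21, a fasting hormone of the liver, ran from -4.25 to -0.43 (median -2.99) on fed arrays and from -4.69 to -3.15 (median -3.64) on treated arrays, with fed replicate 4 highest. Its difference was -1.04 ± 0.59 (adjusted p = 0.193) in AAKO and 3.26 in CTRL (interaction -4.29, adjusted p = 0.000663). The fatty acid omega-hydroxylases Cyp4a10, Cyp4a14 and Cyp4a31 were at 0.10, 0.17 and 0.20 in AAKO, none called, and at 2.38, 2.84 and 2.60 in CTRL. Cyp4a14 was well above background on 5 of 6 arrays of each AAKO group. Neither Angptl4, an inhibitor of lipoprotein lipase (-0.10), nor Vnn1, a pantetheinase (-0.09), was called in AAKO. The interaction of Angptl4 was called (-1.25). Pdk4, which shuts pyruvate out of the citric acid cycle, was at -1.02 ± 0.49 in AAKO (adjusted p = 0.111), and its interaction was not called. Treated replicate 6 was at 0.94 for Pdk4 and the other 5 treated arrays at or below -1.76, and without that replicate Pdk4 was called at -1.47.

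**Figure D2:**
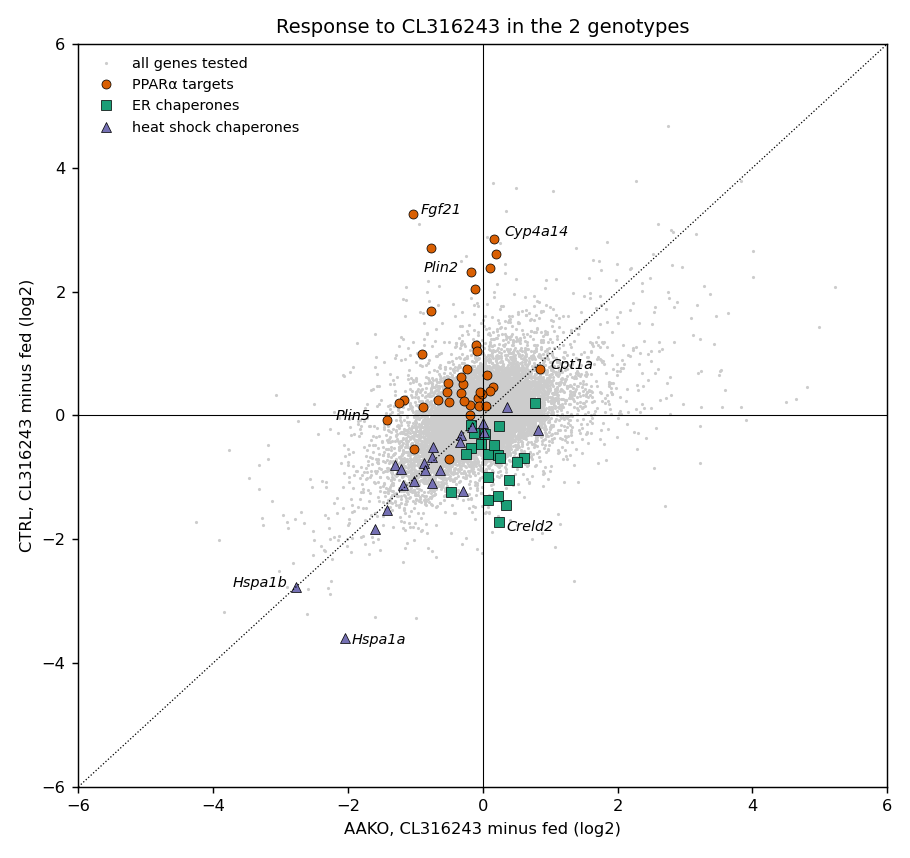
Log2 difference between CL316243 and fed liver for each gene tested (grey points) in AAKO (horizontal axis) and CTRL (vertical axis), with PPARα targets as orange circles, ER chaperones as green squares, heat shock chaperones as purple triangles and the line of equal response dotted. PPARα targets spread upward along the CTRL axis (Fgf21 at 3.26 in CTRL and -1.04 in AAKO), while heat shock chaperones lie near the dotted line.

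Genes of lipid droplet proteins were called more often lower than higher in AAKO. Of 18 tested, 2 were called higher and 7 lower (median -0.16), against 3 and 3 in CTRL (median 0.13). In a fit of these 12 arrays alone 1 was higher and 4 were lower, and without fed replicate 4 the median was -0.09. Pnpla2, which encodes ATGL, was among those that rose. Pnpla2 ran from 2.95 to 3.96 (median 3.35) on the fed arrays and from 4.33 to 5.42 (median 4.58) on the treated arrays (chr7:148645928-148645987). The groups did not overlap, and the difference was 1.29 ± 0.19 (adjusted p = 2.85e-06), against 0.18 in CTRL (adjusted p = 0.532) and with the interaction called (1.11). Since the deletion is in white adipose tissue, the liver signal of Pnpla2 does not check the genotype labels. G0s2, a protein that inhibits ATGL, fell: G0s2 ran from 1.15 to 4.25 (median 1.66) on the fed arrays and from -2.69 to 0.41 (median -0.80) on the treated arrays (chr1:195098925-195098984). Those ranges did not overlap (difference -3.19 ± 0.63, adjusted p = 0.000208), and in CTRL the change of -0.70 was not called, nor was the interaction (-2.49, adjusted p = 0.0689). Within wash batch 2 alone G0s2 was at -1.45 and not called. Mgll, the lipase that takes off the last fatty acid, changed by -0.89 ± 0.13 and Plin4, another perilipin, by -1.18 ± 0.38, both called. Pnpla3, a lipase-like droplet protein, was called lower at 1 probe (adjusted p = 2.2e-07) that was well above background on 6 fed arrays and 1 treated array. The size of that difference depended on the processing, at -4.25 here, -2.57 in the authors' value table and -1.52 after normexp correction, and a second tested probe gave 0.33, so its direction holds for 1 probe. Plin2 and Cidec, which coats large droplets, were at -0.18 and 0.29 in AAKO, neither called, and at 2.32 and 1.76 in CTRL.

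**Figure D3:**
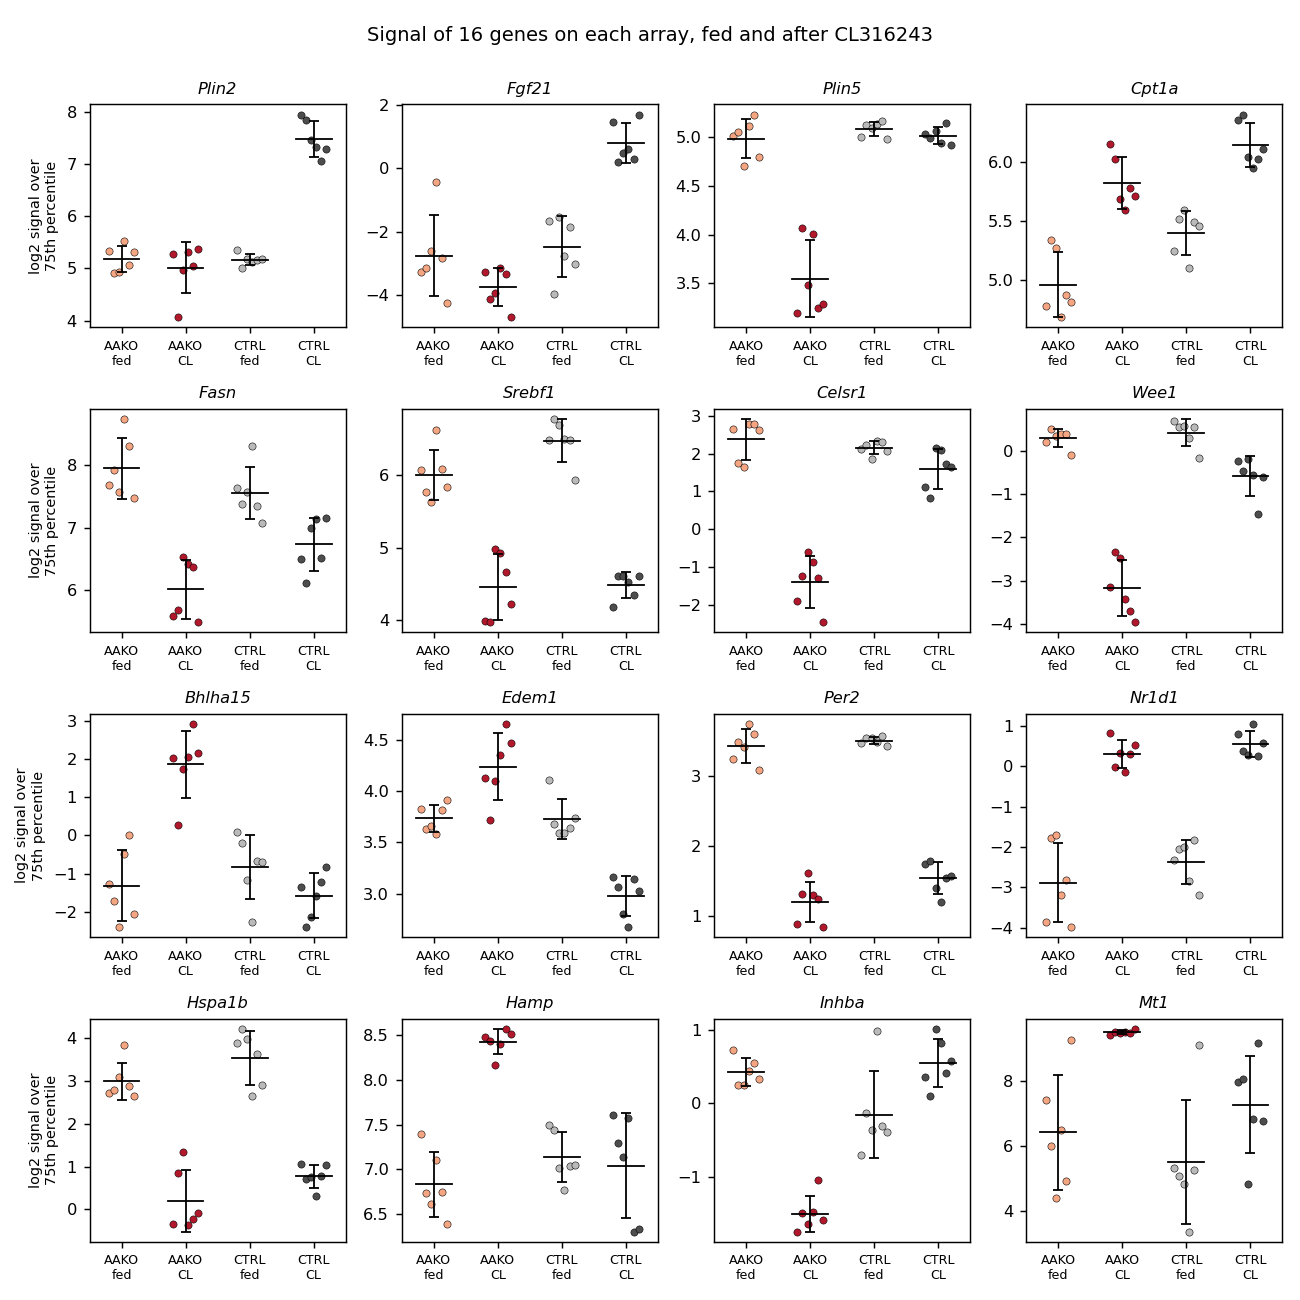
Log2 signal over the 75th percentile of the array for 16 genes on each of 6 arrays per group (points), with the group mean (line) and SD (bars), for AAKO and CTRL mice that were fed or given CL316243 (CL). Plin2 and Fgf21 are high on treated CTRL arrays only, Plin5, Celsr1, Wee1 and Inhba are low on treated AAKO arrays, and Mt1 lies between 9.41 and 9.59 on treated AAKO arrays.

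Lipogenic genes fell in AAKO. Of 22 tested, 13 were called lower and 1 higher (Elovl5, a fatty acid elongase, 0.42), with a median of -0.61. In CTRL 7 were higher and 7 lower (median 0.01), and the interaction was called for 11, all with the lower response in AAKO. The median was -0.87 and -0.23 within wash batches 1 and 2, with 13 and 7 genes called lower. Srebf1 ran from 5.63 to 6.63 (median 5.96) on the fed arrays and from 3.98 to 4.98 (median 4.44) on the treated arrays (chr11:60013214-60013273), without overlap. Srebf1, the transcription factor of lipogenesis, and Thrsp, a lipogenic protein, fell in both genotypes (-1.56 and -2.34 in AAKO, -1.998 and -2.20 in CTRL). Fasn, fatty acid synthase, fell more in AAKO: Fasn ran from 7.47 to 8.72 (median 7.80) on the fed arrays and from 5.50 to 6.54 (median 6.03) on the treated arrays (chr11:120668460-120668519). No arrays overlapped, the difference was -1.92 ± 0.26 (adjusted p = 9.67e-07) against -0.81 in CTRL, and the interaction was -1.11 (adjusted p = 0.0463). Gpam, which starts glycerolipid synthesis, fell in AAKO (-1.82 ± 0.19) and was at -0.22 in CTRL, not called. Acly, which makes cytosolic acetyl-CoA, and Me1, malic enzyme, were called in opposite directions, at -1.28 and -0.65 in AAKO and 0.62 and 0.99 in CTRL.

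Cholesterol synthesis genes showed a smaller change, with 1 of 24 called higher and 7 lower (median -0.05). The balance depended on the probes, since with the mean of all probes of a gene 5 were called higher, and 0 were higher without treated replicate 3 or 5 or fed replicate 3 or 5. Insig1, which holds SREBP in the endoplasmic reticulum, changed by -0.78 ± 0.17, the phosphomevalonate kinase Pmvk by -0.77 ± 0.21 and the sterol desaturase Sc5d by -0.66 ± 0.14, all called. Sc5d and Dhcr7, the last reductase of the pathway, had lower responses in AAKO than in CTRL (interaction -0.95 and -0.98, both called).

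Genes of glucose production and of insulin and cAMP signalling were called in both directions, as were 15.7% of all genes tested in each. Of 13 gluconeogenic genes 4 were called higher and 1 lower. Got1, the cytosolic aspartate aminotransferase, rose: Got1 ran from 5.05 to 6.07 (median 5.69) on the fed arrays and from 6.83 to 8.02 (median 7.16) on the treated arrays (chr19:43574278-43574337). The groups did not overlap, with a difference of 1.57 ± 0.19 (adjusted p = 1.5e-07) against 0.40 in CTRL and a called interaction (1.17). Pck1, the cytosolic PEP carboxykinase, rose by 0.85 (adjusted p = 0.000536) and Pcx, pyruvate carboxylase, by 0.50 (adjusted p = 5.18e-06), both without overlap. G6pc, the phosphatase that releases glucose, and Ppargc1a, a coactivator of the pathway, were not called (-0.37 and 0.07). Of 20 genes of insulin signalling and FoxO, 6 were higher and 5 lower. Irs2, an insulin receptor substrate that insulin represses, rose in AAKO and CTRL by 1.98 and 2.18, and Igfbp1, a secreted binding protein that insulin also represses, by 2.19 and 2.36. Igfbp1 ran from 3.46 to 7.46 (median 5.46) on fed arrays and 6.35 to 8.503 (median 7.58) on treated ones, which overlap. The paralogous substrate Irs1 and the PI3-kinase regulatory subunit Pik3r1 fell in AAKO without overlap (-1.54 ± 0.21 and -0.98 ± 0.16), and their responses differed from CTRL (interaction -1.20 and -0.76, both called).

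Of 22 genes that respond to or carry cAMP signals, 5 were called higher and 4 lower. Sds, serine dehydratase, rose, with 3.66 to 4.60 (median 3.88) on fed arrays and 5.29 to 6.00 (median 5.69) on treated arrays (1.60 ± 0.21, adjusted p = 7.56e-07; -0.29 in CTRL, interaction called), and Crem, a cAMP-responsive modulator, rose by 1.00, with 4 other tested probes between 0.80 and 1.12. Adra1b, the alpha 1B adrenergic receptor of hepatocytes, fell without overlap (-1.63 ± 0.21, adjusted p = 3.41e-07). Adrb3, the receptor that CL316243 acts on, had a probe well above background on all 12 arrays and did not pass the test (0.12, adjusted p = 0.807). Immediate early genes, which are transcribed within minutes of a stimulus, were called higher for 8 of 25 and lower for 3 (median 0.39), against 3 and 5 in CTRL. Of all genes tested, 15.7% were called in each direction in AAKO. Within wash batches 1 and 2 alone, 8 and 2 of the list were called higher and 2 and 0 lower. The AAKO median of the list was 0.18 in the authors' value table and 0.21 after normexp background correction. Egr1, a zinc finger factor, rose, with -3.10 to -0.46 (median -1.74) on fed arrays and 0.12 to 1.45 (median 0.77) on treated arrays (2.75 ± 0.49, adjusted p = 6.29e-05) and in CTRL by 4.67. Btg2, an antiproliferative gene, rose in AAKO (1.78 ± 0.36, adjusted p = 0.000239; -0.12 in CTRL, interaction adjusted p = 0.0114), and Junb rose by 1.60. Within wash batch 2 alone neither Egr1 nor Btg2 was called (limma adjusted p = 0.0753 and 0.217). Fos was not called (0.92 ± 0.38, adjusted p = 0.0621). Dusp1, a phosphatase that switches off MAP kinases, and Maff fell (-1.18 and -0.84).

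Promoter sequence was set beside the lists whose regulators have a known DNA element. The RefSeq table (GRCm38.p6) held a start site for 21 of the 25 immediate early genes tested, and 3 of them held the cAMP response element TGACGTCA within 250 bases before to 50 after the start, on either strand, against 2.03% of all 27025 genes in the table. They are shown because they hold the same element and moved in different directions, with the element in capitals, for Btg2 (chr1:134079264-134079371, minus strand), Dusp1 (chr17:26508558-26508665, minus strand) and Maff (chr15:79347441-79347548, plus strand), each 5′ to 3′ on its own strand.
Btg2: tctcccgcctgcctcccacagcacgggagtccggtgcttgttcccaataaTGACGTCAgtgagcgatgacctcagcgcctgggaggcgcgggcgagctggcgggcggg
Dusp1: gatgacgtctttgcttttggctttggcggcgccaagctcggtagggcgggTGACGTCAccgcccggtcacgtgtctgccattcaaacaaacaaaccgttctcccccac
Maff: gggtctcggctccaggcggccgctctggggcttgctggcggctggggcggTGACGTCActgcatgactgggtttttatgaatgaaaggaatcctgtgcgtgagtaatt
Btg2 was higher by 1.78 and Dusp1 and Maff differed by -1.18 and -0.84. A match is letters in a window, not a measured site. The PPAR element, a direct repeat, was searched in 28 PPARα targets and matched in 0 of them, and in 0.0481% of all genes in the table.

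Single secreted proteins of the liver were called in each direction. Inhba, which encodes the subunit of activin A, fell in AAKO: Inhba ran from 0.24 to 0.73 (median 0.39) on the fed arrays and from -1.74 to -1.04 (median -1.54) on the treated arrays (chr13:16118634-16118693). The groups were wholly apart (difference -1.98 ± 0.30, adjusted p = 4.64e-06), while in CTRL the value was 0.70 (adjusted p = 0.0849) and the interaction was called (-2.67). The activin C subunit Inhbc fell too (-1.07 ± 0.20, adjusted p = 8.36e-05), and Inhbe, the activin E subunit, was at -0.63 in AAKO, not called, and rose by 1.02 in CTRL. Hamp, hepcidin, the hormone that limits iron release, rose in AAKO: Hamp ran from 6.38 to 7.40 (median 6.74) on the fed arrays and from 8.17 to 8.57 (median 8.46) on the treated arrays (chr7:31727490-31727549). It did so without overlap (1.59 ± 0.20, adjusted p = 2.81e-07), against -0.09 in CTRL (adjusted p = 0.79). Of 20 hormone genes of the list 2 were called higher and 5 lower (median -0.18), against 15.7% of all genes in each direction. The median was -0.32 without treated replicate 3, -0.28 without treated replicate 1, -0.29 without fed replicate 1, -0.10 without treated replicate 4, and 0.10 within wash batch 2. Of 17 genes of growth hormone signalling 2 were called higher and 3 lower, also near the share of all genes. Igfals, which holds IGF1 in the circulation, fell in AAKO (-1.18 ± 0.18, adjusted p = 7.69e-06), while Igf1 was at 0.03 and not called. Socs2, a feedback inhibitor of growth hormone signalling, rose by 2.56 (adjusted p = 0.000489), and its other tested probes gave 1.14, 2.38 and 1.09. Bcl6, a repressor that growth hormone lowers, was at -1.99 ± 0.55 (adjusted p = 0.0053) with treated replicate 3 at 4.23, inside the fed range. Within wash batch 2 alone Socs2 and Bcl6 were at 0.97 and -0.91, neither called.

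The genotypes differed in the machinery that folds secreted proteins. Of 21 chaperones and degradation factors of the endoplasmic reticulum (ER), 3 were called higher and 0 lower in AAKO (median 0.17). Of all genes tested, 15.7% were called in each direction there. In CTRL 0 were higher and 15 lower (median -0.64). The higher calls in AAKO were 2 and 0 within wash batches 1 and 2. After normexp correction 1 was called lower, and 2 were lower without fed replicate 3. The interaction was called for 12, each with the higher response in AAKO. Edem1, which sends misfolded glycoproteins to degradation, ran from 3.58 to 3.92 (median 3.74) on fed arrays and from 3.72 to 4.65 (median 4.24) on treated arrays (chr6:108808920-108808979). These ranges overlapped and the difference was 0.51 ± 0.12 (adjusted p = 0.00193), against -0.75 in CTRL. A second tested probe of Edem1 gave 0.22 ± 0.13 in AAKO. Xbp1, the transcription factor of the unfolded protein response, and the co-chaperone Dnajb9 rose by 0.77 and 0.60. Hspa5, the main ER chaperone, was at 0.07 in AAKO and fell by 0.99 in CTRL, and the secreted ER factors Creld2 and Manf were at 0.24 and 0.34 in AAKO, not called, and -1.72 and -1.44 in CTRL. Gfpt1 and Gmppb, which make the sugar donors of glycosylation, were called in opposite directions, at 0.85 and 0.79 in AAKO and -0.73 and -0.81 in CTRL.

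Bhlha15 (Mist1), a basic helix-loop-helix factor of secretory cells, rose in AAKO and was not called in CTRL. Bhlha15 ran from -2.39 to 0.01 (median -1.49) on the fed arrays and from 0.27 to 2.91 (median 2.04) on the treated arrays (chr5:144955175-144955234). No arrays overlapped, and the difference was 3.22 ± 0.43 (9.33-fold, adjusted p = 8.87e-07), against -0.76 in CTRL (adjusted p = 0.214) and with an interaction of 3.99 (adjusted p = 3.98e-05). Targets of ATF4, the factor of the integrated stress response, were called higher for 7 of 19 and lower for 0 in AAKO (median 0.39), and for 6 and 2 in CTRL. Of all genes tested, 15.7% were called in each direction in AAKO. The higher count in AAKO was 6 and 2 within wash batches 1 and 2 alone. With the mean of all probes of a gene the median was 0.23. Chac1, a glutathione-degrading enzyme, rose by 3.29 ± 0.50 (adjusted p = 6.16e-06) and Trib3, a pseudokinase, by 1.75 ± 0.32 (adjusted p = 7.54e-05), both without overlap and both called in CTRL (2.08 and 1.93). Within wash batch 2 alone Chac1 was at 2.18 and not called. Ppp1r15a, which restores translation after stress, and Atf4 rose in AAKO (0.93 and 0.53), with higher responses than in CTRL (0.84 and 0.73, both called).

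Heat shock chaperones, most of them cytosolic, fell in both genotypes (the list also holds the mitochondrial chaperonins Hspd1 and Hspe1 and the factor Hsf1). In AAKO 16 of 22 were called lower and 2 higher (median -0.75), and in CTRL 17 and 0 (median -0.84). Hspa1b, an inducible HSP70, ran from 2.65 to 3.83 (median 2.83) on fed arrays and from -0.35 to 1.35 (median -0.15) on treated arrays (chr17:35093374-35093405). The arrays were wholly apart, and the difference was -2.77 ± 0.29 (adjusted p = 1.5e-08), against -2.77 in CTRL. Its near-identical neighbour Hspa1a was at -2.05 ± 0.38, and cross-hybridisation between both genes is possible. Hsph1, an HSP110, and Hspb1, a small heat shock protein, fell by 1.59 and 1.42, and the HSP90 genes Hsp90aa1 and Hsp90ab1 were at -0.88 and -0.74. Hspb8 and Hspa4 were called higher (0.81 and 0.36). A heat shock element, the site of HSF1, was matched in the promoter window of 4 of 17 genes with a start in the table (Chordc1, Hspd1, Hspe1 and Hsph1), against 0.662% of all genes there. The stretches around the match are shown for the 3 that were called, Chordc1 (chr9:18292213-18292296, plus strand), Hspe1 (chr1:55088009-55088126, plus strand) and Hsph1 (chr5:149636286-149636350, minus strand), with the element, which overlaps itself in the first 2, in capitals.
Chordc1: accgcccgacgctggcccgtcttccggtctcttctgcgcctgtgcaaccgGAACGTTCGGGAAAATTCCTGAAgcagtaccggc
Hspe1: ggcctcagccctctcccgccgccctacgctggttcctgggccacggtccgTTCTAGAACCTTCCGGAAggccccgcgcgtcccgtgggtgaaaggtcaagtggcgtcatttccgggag
Hsph1: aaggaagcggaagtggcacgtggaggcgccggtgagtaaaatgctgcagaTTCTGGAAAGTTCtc
These genes were at -0.75, -0.34 and -1.59 in AAKO and -1.09, -0.43 and -1.83 in CTRL.

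Genes of the circadian clock moved in both directions. In AAKO 4 of 21 were called higher and 8 lower, against 15.7% of all genes tested in each direction. Within wash batches 1 and 2 alone 3 and 2 were called higher and 7 and 5 lower. The interaction was called for 2 (Hlf and Rora). Per2, a repressor of the clock, ran from 3.09 to 3.74 (median 3.45) on fed arrays and from 0.85 to 1.62 (median 1.28) on treated arrays (chr1:93312595-93312654). It was wholly lower after treatment (-2.21 ± 0.16, adjusted p = 2.4e-11), though a second tested probe gave -0.47, and in CTRL it was at -1.96. Nr1d1 (REV-ERBα), a repressor of Arntl, ran from -3.98 to -1.71 (median -3.00) on fed arrays and from -0.13 to 0.82 (median 0.32) on treated arrays (chr11:98630526-98631028). It was wholly higher (3.16 ± 0.38, adjusted p = 1.67e-07), and 2.92 in CTRL. Arntl (BMAL1), the activator of the clock, fell by 2.36, while the output factor Dbp rose by 1.68. Of 9 cold-inducible and CLK kinase genes 4 were called higher and 1 lower, against the same 15.7% of all genes tested in each direction. The higher count was 2 without fed replicate 6 or in a fit of these 12 arrays alone. It was 1 and 2 within wash batches 1 and 2 alone. Per1 was not called (0.47 ± 0.28, adjusted p = 0.214). All mice were killed at ZT 16, and the treated and fed groups belong to separate experiments. The E-box CACGTG, the site of CLOCK and BMAL1, was matched in 5 of 17 clock promoters, against 8.09% of all genes in the table. Of those 5, Bhlhe41 and Cry1 were called, and their stretches, Bhlhe41 (chr6:145865518-145865623, minus strand) and Cry1 (chr10:85185059-85185164, minus strand), are shown because the genes moved oppositely.
Bhlhe41: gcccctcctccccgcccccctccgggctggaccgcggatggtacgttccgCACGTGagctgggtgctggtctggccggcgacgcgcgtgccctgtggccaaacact
Cry1: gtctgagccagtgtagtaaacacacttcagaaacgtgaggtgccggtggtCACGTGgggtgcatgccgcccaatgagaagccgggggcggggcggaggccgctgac
Bhlhe41, a repressor of the clock, rose by 1.84 and Cry1, another repressor, was at -1.73.

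Acute phase genes, which hepatocytes transcribe in response to IL-6 and IL-1, rose in AAKO. Of 28 tested, 17 were called higher and 0 lower (median 0.96), against 6 and 0 in CTRL (median 0.51), and 6 had a higher and 1 a lower response in AAKO. Serpina3n, a protease inhibitor, rose by 2.39 ± 0.31 (adjusted p = 4.42e-07) and was at 0.12 in CTRL. Steap4, a metalloreductase, and Fga, a fibrinogen chain, rose by 2.03 and 1.83 and also differed from CTRL (1.98 and 1.14, both called). Socs3, the feedback inhibitor of STAT3, rose, with -0.08 to 3.68 (median 0.97) on fed arrays and 3.58 to 5.92 (median 5.19) on treated arrays (3.37 ± 0.50, adjusted p = 3.6e-06).

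The fed AAKO arrays were far apart in these genes. The list mean was 6.62 on fed replicate 6, 5.71 and 5.52 on replicates 1 and 4, and 4.68, 4.50 and 4.35 on replicates 2, 3 and 5, while the treated arrays lay between 6.12 and 6.73. Saa1, serum amyloid A, ran from 4.70 to 10.08 (median 7.14) on fed and 9.83 to 10.16 (median 10.02) on treated arrays (chr7:53996070-53996129). Fed replicate 6 overlapped the treated arrays, and the difference of 2.89 ± 1.01 (adjusted p = 0.0278) was not called without fed replicate 2, 3 or 5, nor within either wash batch. Lcn2, lipocalin 2, also had fed replicate 6 among the treated arrays (it ran from -0.43 to 7.80 (median 2.65) on the fed arrays and from 5.31 to 7.14 (median 6.50) on the treated arrays; 3.46 ± 1.30, adjusted p = 0.0412), and missed the threshold in a fit of these 12 arrays alone (limma adjusted p = 0.0553), with no filter on dim probes, within each wash batch (adjusted p = 0.0562 and 0.599), and without fed replicate 2, 3 or 5 or treated replicate 1, 4, 5 or 6 (adjusted p up to 0.124). The count of acute phase genes called higher was 20 without fed replicate 6, 12 without replicate 3 or 5, 13 without replicate 2, and 12 and 5 within wash batches 1 and 2. The mean of 13 neutrophil markers was -0.08 and -1.04 on fed replicates 6 and 1, between -3.40 and -2.44 on the other fed arrays and between -2.61 and -1.66 on the treated arrays. Its part in the acute phase values was not tested.

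**Figure D4:**
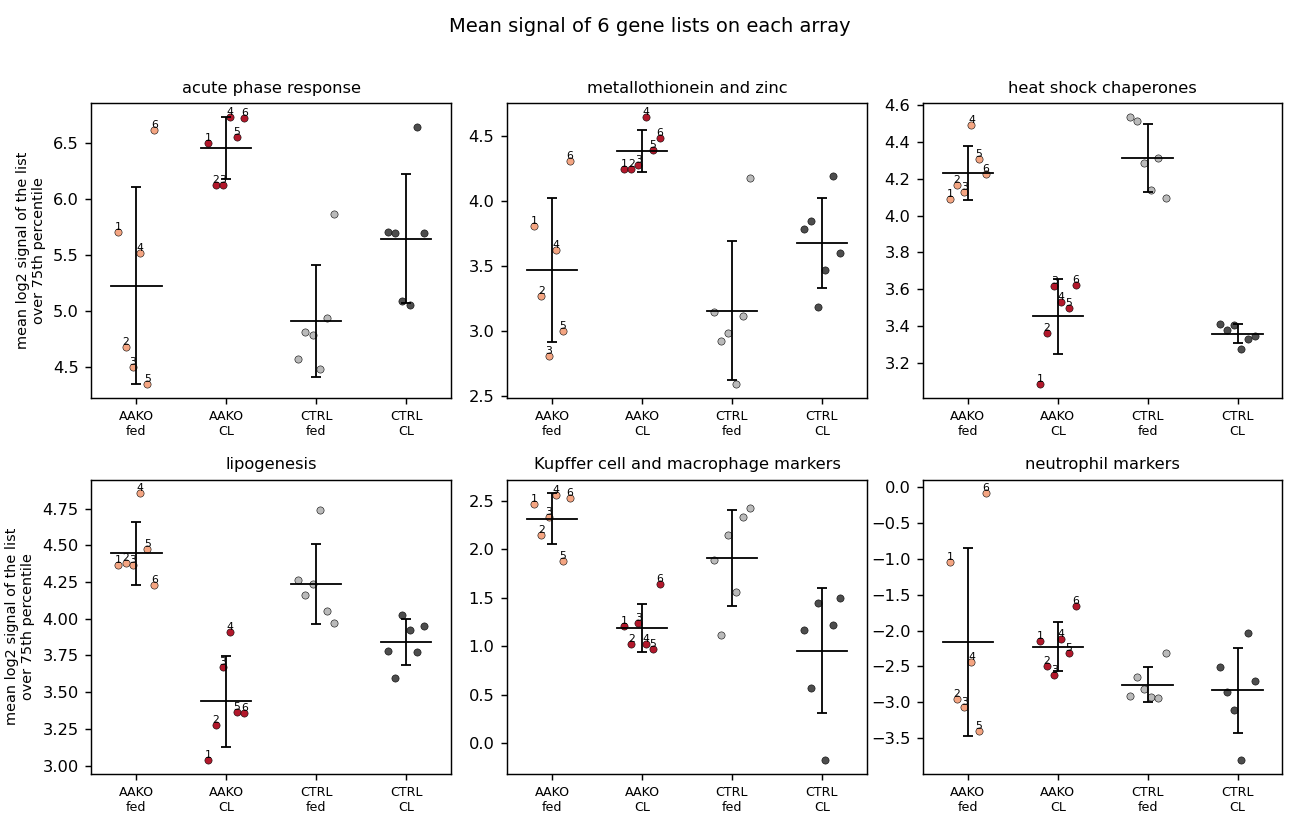
Mean log2 signal over the 75th percentile for 6 gene lists on each array (points, 6 per group; replicate numbers above the AAKO points), with the group mean (line) and SD (bars). In the acute phase panel fed replicate 6 (6.62) lies among the treated AAKO arrays (6.12 to 6.73), whereas the heat shock and lipogenesis panels show no overlap between fed and treated AAKO arrays.

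Metallothioneins, small zinc-binding proteins induced by zinc and glucocorticoids, reached nearly the same level on every treated array. Mt1 ran from 4.39 to 9.25 (median 6.24) on the fed arrays and from 9.41 to 9.59 (median 9.49) on the treated arrays (chr8:96704165-96704224). Treated arrays lay above all fed arrays, with an SD of 0.0599 against 1.77, and fed replicate 6 was close to them. The difference was 3.17 ± 0.68 (adjusted p = 0.000535), and 4.56 at a second tested probe. Mt2 showed the same order, with a difference of 4.01 ± 0.94 (adjusted p = 0.00136), and neither interaction was called (1.39 and 1.35). Within wash batch 2, which holds fed replicates 1, 2 and 6, neither gene was called (adjusted p = 0.326 and 0.446). Of 10 genes of the zinc list 4 were called higher and 1 lower. Slc39a14, a zinc importer induced in the acute phase, rose by 1.98 ± 0.27 (adjusted p = 1.15e-06) and Nnmt, nicotinamide N-methyltransferase, by 1.23 ± 0.18, both without overlap and both with a higher response than in CTRL (1.27 and 0.98). Slc30a1, the zinc exporter, fell (-0.88, adjusted p = 4.08e-06). The metal response element was searched as TGCACTC only, and other spellings were not counted or marked. It was matched in 2 of 6 promoters of this list, Mt1 (chr8:94179041-94179118, plus strand) and Slc30a1 (chr1:191906688-191906794, plus strand), against 3.63% of all genes in the table. Both are shown because the genes moved oppositely, and in Slc30a1 the match is on the other strand.
Mt1: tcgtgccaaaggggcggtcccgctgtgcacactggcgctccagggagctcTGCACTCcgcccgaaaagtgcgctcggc
Slc30a1: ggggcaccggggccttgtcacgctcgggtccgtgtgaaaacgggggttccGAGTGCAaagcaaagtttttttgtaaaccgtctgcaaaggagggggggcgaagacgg
Mt1 was at 3.17 and Slc30a1 at -0.88.

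By the naming rule, the highest called difference belonged to a probe of Pip5k1a (chr3:94901128-94901187; 5.23 ± 0.93, adjusted p = 5.39e-05), a phosphoinositide kinase. It ran from 1.08 to 7.58 (median 2.88) on fed and 7.83 to 8.93 (median 8.60) on treated arrays, with fed replicate 6 highest as in Mt1, and 2 other tested probes of the gene gave 0.50 and 0.74. Within wash batch 2 alone Pip5k1a was at 3.32 and not called. Alpk1, a kinase that senses bacterial sugars, and Tifa, its adaptor, both rose. Alpk1 ran from -5.25 to -2.30 (median -4.22) on the fed arrays and from -1.12 to -0.34 (median -0.50) on the treated arrays (chr3:127373850-127373909). The difference was 3.5004 ± 0.47 (adjusted p = 8.3e-07) with an interaction of 2.85 (adjusted p = 0.00394). Tifa ran from 0.60 to 3.44 (median 0.94) on the fed arrays and from 3.76 to 5.45 (median 4.84) on the treated arrays (chr3:127501256-127501312), a difference of 3.20 ± 0.39 (adjusted p = 2.2e-07) with an interaction of 2.51. Neither gene's groups overlapped, and in CTRL the differences of 0.65 and 0.69 were not called. Ccr8, a chemokine receptor (3.23 ± 0.33), Atp6v0a4, a proton pump subunit (3.23 ± 0.46), Gnat1 (2.95 ± 0.30) and Fabp12 (2.83 ± 0.33) completed, with Chac1, Mt2 and the genes above, the 12 highest genes by the naming rule (apart, above background on all 12 arrays, no other probe of opposite sign). Ccr8 and Atp6v0a4 were at 0.13 and -0.18 in CTRL, not called, with interactions of 3.10 and 3.41 (both called). After normexp correction Alpk1, Ccr8, Atp6v0a4 and Fabp12 were at 1.80, 1.63, 1.44 and 1.83.

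Among the lowest by the same rule, Celsr1, an adhesion receptor of planar polarity, ran from 1.64 to 2.79 (median 2.64) on fed and -2.46 to -0.60 (median -1.26) on treated arrays (chr15:85729381-85729440). The arrays were wholly apart, at -3.77 ± 0.30 (13.6-fold lower, adjusted p = 8.34e-11), against -0.56 in CTRL (adjusted p = 0.18) and with an interaction of -3.21 (adjusted p = 5.5e-06) that was called under every alternative run. Wee1, the kinase that holds back entry into mitosis and is under clock control in liver, ran from -0.08 to 0.52 (median 0.37) on fed arrays and from -3.96 to -2.34 (median -3.29) on treated arrays (chr7:117286573-117286632). It fell without overlap (-3.47 ± 0.23, adjusted p = 4.81e-12), and fell in CTRL by 1.01, with an interaction of -2.46. The N-acetyltransferase-like genes Nat8f5 and Nat8f6 were at -3.27 ± 0.22 and -2.78 ± 0.22, and fell less in CTRL (-1.66 and -1.68; interactions called). As related genes they may share signal. Cyp26b1, which breaks down retinoic acid, was at -3.13 ± 0.49, Col27a1 at -3.02 ± 0.23, Vpreb3 at -2.91 ± 0.28, Pcp4l1 at -2.69 ± 0.20 and Cys1 at -2.65 ± 0.22. All were called lower in CTRL too, and the lack of overlap in AAKO was a condition of the rule. A second tested probe of Pcp4l1 gave -0.39 ± 0.12. After normexp correction Wee1, Nat8f6 and Vpreb3 were at -2.30, -1.20 and -1.59.

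Among the xenobiotic and bile acid genes that were called, more were lower than higher, though neither list fell as a whole. Of 21 xenobiotic P450 genes and receptors, 9 were called lower and 2 higher, against 15.7% of all genes tested in each direction. The list median was -0.02, with 10 positive and 11 negative differences. Within wash batches 1 and 2 alone, 7 and 3 were called lower. Nr1i3 (CAR), the receptor that induces Cyp2b genes, fell in AAKO: Nr1i3 ran from 1.73 to 2.17 (median 2.01) on the fed arrays and from -0.23 to 1.00 (median 0.40) on the treated arrays (chr1:173147776-173147835). The groups were apart (-1.61 ± 0.15, adjusted p = 2.94e-09), and the response differed from the -0.16 in CTRL (interaction -1.44). The coumarin and steroid hydroxylases Cyp2a4 and Cyp2a5, near-identical genes whose probes may share signal, fell in both genotypes (-1.71 and -1.45 in AAKO). Cyp2b9 and Cyp2b10 were at 0.73 and 0.88 in AAKO, not called, and fell in CTRL (-1.99 and -1.89). Of 15 bile acid genes 2 were higher and 4 lower. Within wash batches 1 and 2 alone, 4 and 1 of them were called lower and 0 higher. Nr0b2 (SHP), the FXR-induced repressor, fell (-1.60 ± 0.43, adjusted p = 0.00428), and the sterol 12-hydroxylase Cyp8b1 rose (0.75 ± 0.22, adjusted p = 0.00816), a call that a fit of these 12 arrays alone did not keep. Cyp7a1, the rate-limiting enzyme of bile acid synthesis, was at -0.45 ± 0.43 (adjusted p = 0.472), and its other tested probe at 0.04.

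Genes called in opposite directions in the 2 genotypes numbered 146 higher in AAKO and lower in CTRL, and 115 the reverse. Besides those above, the clearest by the naming rule were Eif4ebp3, a repressor of translation initiation, Tspyl2, Zfp862-ps and Id3 on the side that rose in AAKO. Eif4ebp3 ran from 4.59 to 5.89 (median 5.35) on fed arrays and from 6.04 to 7.25 (median 6.32) on treated arrays (1.15 ± 0.24, adjusted p = 0.000353) and was at -1.75 in CTRL. Id3, an inhibitor of helix-loop-helix factors, was at 0.89 and -1.14, and its AAKO call was lost in a fit of these 12 arrays alone (limma adjusted p = 0.103), within each wash batch, and without treated replicate 4 or fed replicate 2 or 5. On the other side, Lgals4, a galectin, was at -0.93 ± 0.19 in AAKO and 1.68 in CTRL (interaction adjusted p = 2.04e-07), and Gprin3 at -1.31 and 0.93. Tlr12, a toll-like receptor, was at -1.14 ± 0.41 (adjusted p = 0.0324) and 1.86, Sun3 at -1.04 and 1.19 and Cep72 at -0.93 and 0.92. Cep72 was not well above background on any treated AAKO array and was at least 1.28-fold lower there, and Sun3 was above background on 4 fed and 3 treated arrays. The AAKO calls of both were lost after normexp correction and in the deposited value table, and that of Sun3 also without treated replicate 6 or fed replicate 2 or 3. The call of Tlr12 was lost in a fit of these 12 arrays alone, with no filter on dim probes, within each wash batch (adjusted p = 0.055 and 0.528), and without treated replicate 4, 5 or 6 or fed replicate 2 or 5 (adjusted p up to 0.0932). Amigo3 was not well above background on any fed AAKO array and was at least 2.83-fold higher on the treated ones (at least N-fold sets the bright group against the higher of the probe's own signal and the lowest signal well above background, per array). Rnf138rt1 (3 of 6 fed arrays above background) and Slc10a6 (1 of 6) rose, and Gask1a (1 of 6 treated arrays) fell, without overlap. The sizes of these 3 differences depended on the background correction, at 4.80, 3.83 and -3.07 here and 2.14, 1.07 and -0.68 after normexp correction. Chrna4, Paqr7 and Aqp8 were at -2.51, -2.07 and -2.06 in AAKO, with lower responses than in CTRL (interactions -2.69, -2.72 and -2.69), and Chrna4 was at -0.98 after normexp correction.

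Chemokines and cytokines were called lower for 6 of 20 and higher for 1, against 15.7% of all genes tested in each direction. Cxcl1, a neutrophil attractant, rose, with -0.10 to 5.29 (median 0.79) on fed arrays and 3.69 to 6.61 (median 5.80) on treated arrays (3.64 ± 0.81, adjusted p = 0.000791), with fed replicates 1 and 6 at 5.29 and 5.17, inside the treated range. Within wash batch 2 alone Cxcl1 was at 2.06 and not called. The monocyte attractant Ccl2 was at -1.17 ± 0.42 (adjusted p = 0.0302), Ccl24 at -1.005 ± 0.28 and Ccl5 at -0.80 ± 0.29 (adjusted p = 0.0365). Neither Ccl2 nor Ccl5 kept its call throughout. That of Ccl2 was lost in a fit of these 12 arrays alone, within each wash batch, and without treated replicate 2 or 3 or fed replicate 1 or 6 (adjusted p up to 0.369). That of Ccl5 was lost with no filter on dim probes, with slide as a fixed factor, within each wash batch, and without treated replicate 2, 3, 4 or 5 or fed replicate 1, 3 or 4 (adjusted p up to 0.234). The 6 lower calls became 3 without fed replicate 1, and 3 and 1 within wash batches 1 and 2 alone.

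Most markers of Kupffer cells and of endothelial cells fell after treatment. Of 11 markers of Kupffer cells and macrophages 10 were called lower and 0 higher (median -1.14), and in CTRL 9 were lower (median -0.96). Their summed signal, in units of the 75th percentile of the array, was 72.5 to 125 on fed and 42.2 to 66.7 on treated AAKO arrays, without overlap. Adgre1, a macrophage surface receptor, was at -1.46 ± 0.37, Vsig4 at -1.41 ± 0.38 and Csf1r at -1.14 ± 0.28. The count of calls was between 4 and 9 when 1 array was left out (4 without treated replicate 4, 5 without treated replicate 3 or fed replicate 3 or 4, 6 without treated replicate 2 or fed replicate 6), and it was 6 with slide as a fixed factor or no filter on dim probes. It was 0 and 3 within wash batches 1 and 2, where the median stayed at -1.09 and -1.28. Endothelial markers were called lower for 5 of 8 (median -0.69; summed signal 44.6 to 54.1 fed and 26.7 to 40.2 treated) and stellate cell markers for 4 of 8 (median -0.19, and -0.51 without treated replicate 6). The stellate markers called were Lrat at -1.34 ± 0.21, Rgs5 at -0.88, Reln at -0.64 and Dcn at -0.41, and Des, Hgf, Ngfr and Pdgfrb lay between 0.03 and 0.19, not called. Of 5 erythroid markers tested 3 were called lower and 1 higher. The haemoglobin genes Hbb-bt and Hba-a1 were at -1.17 ± 0.26 and -0.98 ± 0.24 and Alas2 at -0.30, whereas the erythroid factor Klf1 was at 0.52, a call lost without treated replicate 2 or fed replicate 1, 4 or 5. Neutrophil, cholangiocyte and lymphocyte markers had 1 of 13, 1 of 7 and 2 of 9 called lower and none higher, against 15.7% of all genes. Of adipocyte markers 0 of 6 were called, and Ucp1 was not well above background on any of the 12 arrays. The part of these cell types in the chemokine and other lower values was not tested.

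Fasted AAKO mice, which belong to the same experiment as the treated ones, give a second reference that shares the treated arrays. Between CL316243 and the fast 14531 genes were called (59.9%), 33.8% of all tested higher after CL316243 and 26.1% lower. The share of higher calls among those called was 56.4% here, 56.9% with median scaling and 53.9% with quantile normalization. It was 41.7% in the authors' value table and 68.6% after normexp correction. The balance between directions therefore depended on the background correction and on the value table used. Plin5 was at -2.67 against fasted mice and -1.43 against fed mice, Acsl1 at -1.28 and -1.17, and Bhlha15 at 7.16 and 3.22, all called. Saa1 was at 2.89 and Tifa at 3.44 against fasted mice, both called. Mt1 and Hamp were at 0.28 and -0.07, neither called. Inhba was 2.14 higher than in fasted mice, opposite to its difference from fed mice. Of the heat shock chaperones 14 were higher and 3 lower than in fasted mice. Of the Kupffer cell markers 0 of 11 were called against fasted mice. In that contrast the median of all genes was 0.08, and normexp background correction moved it to 0.15 and the deposited value table to -0.05.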

How the data were processed

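Liver RNA (200 ng, Cy3) was measured on 36 one-colour Agilent arrays, 6 in each of 6 groups. Per the file headers, the deposited intensity values came from Agilent Feature Extraction 10.10.1.1, which subtracts background. The authors' deposited value table holds log2 values. Its normalization is not given in the sources used here, and it served as an alternative. Each array's log2 processed signal was set relative to its 75th percentile, after leaving out control spots and outlier-marked spots (0.127%). The brightest of a gene's probes stood for it. Of 37315 genes, 24243 were tested, being well above background on at least 5 of 6 arrays of a group. The fit was limma 3.58.1 (R 4.3.3) with 6 group means and wash batch over 36 arrays, with Benjamini-Hochberg adjustment at 0.05, and was tested on simulated data. The number of arrays limits precision. Fitted differences allow for wash batch and can differ slightly from differences of means. RefSeq (GRCm38.p6) named 33321 of 56605 probes.

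Named genes were drawn by rule. It took the 12 highest and 12 lowest among called genes whose treated and fed arrays did not overlap. Those genes also had to be well above background on all 12 arrays, with no other tested probe of opposite sign. Symbols that are clone, predicted or accession names were left out. Added to them were up to 4 with the largest change in each of 20 lists, the 6 highest and 6 lowest interactions, up to 6 in each direction called oppositely in the genotypes, and a set of well-known genes. Some genes that this rule names are not reported here and were not replaced. Other list members are named as examples, chosen after their values were seen. Members and lists were chosen with earlier results of these data known. Alternatives changed background correction, scaling, probe filter and summary, the groups in the fit, batch terms and replicates.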

Additional observations from a re-analysis of the deposited data

Results flagged for a closer look

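Single arrays stood far from the other 5 of their group in 13 of 244 groups of 6 checked over the 122 named genes, where the gap to the next array, as a share of the range of the group, exceeded Dixon's critical value. Chance marks about 1 in 20 groups. Values are log2 signal over the 75th percentile of the array. High arrays were Ccr8 on fed replicate 6 (-2.68, next array -4.09), Eif4ebp3 on treated replicate 2 (7.25, next array 6.46), Hspa1b on fed replicate 4 (3.83, next array 3.08), Pdk4 on treated replicate 6 (0.94, next array -1.76) and Pnpla3 on treated replicate 4 (-3.52, next array -5.60). Low arrays were G6pc on treated replicate 6 (3.02, next array 5.44), Mthfd2 on treated replicate 2 (-2.30, next array -1.31), Pck1 on treated replicate 6 (8.22, next array 8.53), Pik3r1 on treated replicate 1 (0.10, next array 0.66), Plin2 on treated replicate 2 (4.07, next array 4.98), Pmvk on treated replicate 6 (3.92, next array 4.36), Slc39a14 on treated replicate 3 (4.60, next array 5.10) and Socs2 on treated replicate 3 (1.26, next array 3.12).

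For 60 of the named genes the response to CL316243 differed between the genotypes by the limma interaction term (adjusted p under 0.05), given here as the AAKO minus the CTRL log2 difference. The AAKO response was lower for Fgf21 -4.29, Gask1a -3.40, Celsr1 -3.21, Tlr12 -3.00, Paqr7 -2.72, Chrna4 -2.69, Aqp8 -2.69, Inhba -2.67, Cyp4a14 -2.67, Lgals4 -2.60, Pnpla3 -2.52 and Plin2 -2.50. Smaller negative differences were those of Wee1 -2.46, Crat -2.43, Gprin3 -2.24, Sun3 -2.23, Acot4 -1.90, Cep72 -1.85, Nat8f5 -1.61, Nr1i3 -1.44, Aldh3a2 -1.44, Acsl1 -1.42, Plin5 -1.36 and Inhbc -1.27. The least negative were those of Angptl4 -1.25, Irs1 -1.20, Adra1b -1.16, Pcp4l1 -1.13, Fasn -1.11, Nat8f6 -1.10, Sc5d -0.95, Igfals -0.89 and Pik3r1 -0.76. The AAKO response was higher for Rnf138rt1 4.35, Bhlha15 3.99, Slc10a6 3.70, Atp6v0a4 3.41, Amigo3 3.40, Ccr8 3.10, Eif4ebp3 2.89, Alpk1 2.85, Tifa 2.51, Id3 2.03, Tspyl2 1.99 and Btg2 1.90. Smaller positive differences were those of Zfp862-ps 1.89, Sds 1.89, Hamp 1.68, Gmppb 1.59, Gfpt1 1.58, Dnajb9 1.29, Slc39a14 1.27, Edem1 1.25, Got1 1.17, Pnpla2 1.11, Nnmt 0.98 and Ppp1r15a 0.84. The least positive were those of Xbp1 0.57, Baat 0.54 and Pcx 0.35. Amigo3, Cep72, Gask1a, Pnpla3 and Slc10a6 were well above background on at most 1 array of an AAKO group, and the sizes of such interactions depend on the background correction, with Gask1a at -0.80 and Slc10a6 at 1.05 after normexp correction.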

How the results depend on the processing

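All 112 called genes among the 122 named kept their direction under every alternative run, and 51 kept their call in each. Within wash batches 1 and 2 the counts of called genes were 4720 and 2291 for AAKO, 2126 and 1601 for CTRL and 460 and 476 for the interaction, with fewer arrays in the fit. With 1 array left out they ran from 6617 to 7467 (AAKO), 4695 to 5565 (CTRL), 2220 to 2997 (interaction) and 13922 to 14426 (against fasted). The other alternatives for AAKO gave 6772 to 7746. Values that changed sign all belonged to genes that were not called. Within wash batch 2 Angptl4 was at 0.30, Fgf21 at 0.0048 and G6pc at 0.32, and within batch 1 Ppargc1a was at -0.19. In the authors' value table Cyp4a14 was at -0.048. With 1 array left out, Angptl4 ran from -0.34 (without fed replicate 1) to 0.075 (fed replicate 2; 0.071 without fed replicate 5), G6pc from -0.63 (fed replicate 1) to 0.089 (treated replicate 6), Plin2 from -0.25 (treated replicate 4) to 0.0085 (treated replicate 2) and Ppargc1a from -0.17 (treated replicate 3) to 0.26 (treated replicate 5). With only the groups of the contrast, the calls of Ccl2, Cirbp, Cyp8b1, Id3, Lcn2, Socs1, Sun3 and Tlr12 were lost and Fos was called (0.95). After normexp correction Cep72, Cyp1a1 and Sun3 were at -0.05, -0.18 and -0.08 and not called. Beyond what the construction of an alternative shows, the cause was not tested. The labels do not say that replicate numbers pair the samples, and the main fit used no pairing. The correlation of deviations between same-numbered treated and fed arrays ran from -0.0780 to 0.104 in AAKO and from -0.0427 to 0.196 in CTRL. Weak correlations cannot show that samples were unpaired. With the replicate block the counts were 7561, 5574, 2613 and 14436, and among the named genes the AAKO calls of Socs1 and Tlr12 were lost (adjusted p = 0.0514 for Tlr12). For probes near background the signal limits the size of a difference.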
